A study of Bos taurus with 4 samples.

Results

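The probes examined were the oligonucleotides of a bovine embryo microarray, EMBV3, for which the platform's probe annotation used here gave no gene symbol. They were all EMBV3 probes of 4 two-colour arrays that this annotation did not list, and they numbered 22004 of 43794 probes, or 50.2%. The other 21790 probes were each listed with 1 symbol and served for comparison. A probe not listed there is unnamed here, which is not the same as having no gene, and the files held no probe sequence or genome position from which one could be found.

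Total RNA came from pools of expanded blastocysts of beef cattle, all produced in vitro from slaughterhouse oocytes. The labels date the collection of the embryos to day 7 after fertilization, while the methods place the collection of the morulae on that day and let the blastocysts form in later culture. On each array, 1 pool grown from vitrified morulae was hybridized together with 1 pool grown from control morulae that stayed in culture, giving 4 vitrified and 4 control pools on 1 slide. The vitrified morulae were passed through vitrification solutions, frozen on a Cryotop in liquid nitrogen, stored, and cultured on after warming. The labels gave 7 embryos per pool, and they marked both channels as cryopreserved, although the second channel carried the control treatment. Each pool's RNA went through T7 amplification in repeated rounds before it was labelled. The vitrified pool carried Cy5 on arrays 1 and 2 and Cy3 on arrays 3 and 4.

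A blastocyst consists of an outer trophectoderm, which forms the placenta, and an inner cell mass, which forms the fetus. Vitrification turns the medium around an embryo to glass by very fast cooling with cryoprotectants. The EMBV3 design carries probes for known bovine genes, for alternative exons and 3′ ends, and for transcribed regions first seen when bovine embryo RNA was sequenced. An unnamed probe can be of any of these kinds, and nothing in the files separated them. For that reason no role can be given to a single probe.

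The labelled stage was checked with probes that have a symbol. Probes for all 11 trophectoderm genes looked for were above background in all 8 readings, where a reading is 1 dye on 1 array, and so were 4 of 5 inner cell mass genes. Of 7 cumulus cell genes, 1 was above background in all 8 readings and 3 in none. Of 3 hypoblast genes with probes, 2 were above background in all 8 readings. Of 6 oocyte genes, 0 were above background in all 8 readings and 2, GDF9 and ZAR1, in none, whereas BMP15 and ZP3 passed in 7 and NLRP5 in 5. All 3 blood genes looked for had probes, and 2 were above background in all 8 readings. The part of other cell types in the values below was not tested.

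Unnamed probes lay among the named ones over the whole array. In 22 successive blocks of probe numbers they made up 48.4% to 54.3% of the probes. In 17 blocks of array rows their share was 48.2% to 51.4%. Median local background differed by at most 1 unit between unnamed and named probes in each reading, within 24 to 33 units. Position and local background were thus much the same for both classes.

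Unnamed probes were detected less often than named probes in every reading. A probe counted as above background where its median scanned signal passed the mean plus 2 SD of 153 negative control spots of the same dye and array. In the Cy3 channel, 60.5%, 59.7%, 54.8% and 59.1% of unnamed probes passed on arrays 1 to 4. In the Cy5 channel, the shares were 61.6%, 58.7%, 53.4% and 57.1%. Array 3 was lowest in both dyes. Averaged over the dyes of each array, 58.1% of unnamed probes (SD 2.94, n = 4 arrays) and 70.1% of named probes (SD 2.72) were above background. The gap was 11.9, 11.4, 12.3 and 12.5 percentage points on the 4 arrays. Its mean of 12.0 points was therefore large beside its SD of 0.50, while the exact two-sided sign-flip test over 4 arrays gave p = 0.125, the smallest value this design allows. Dark corner control spots passed the same limit in 0.66% to 4.47% of cases.

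**Figure D1:**
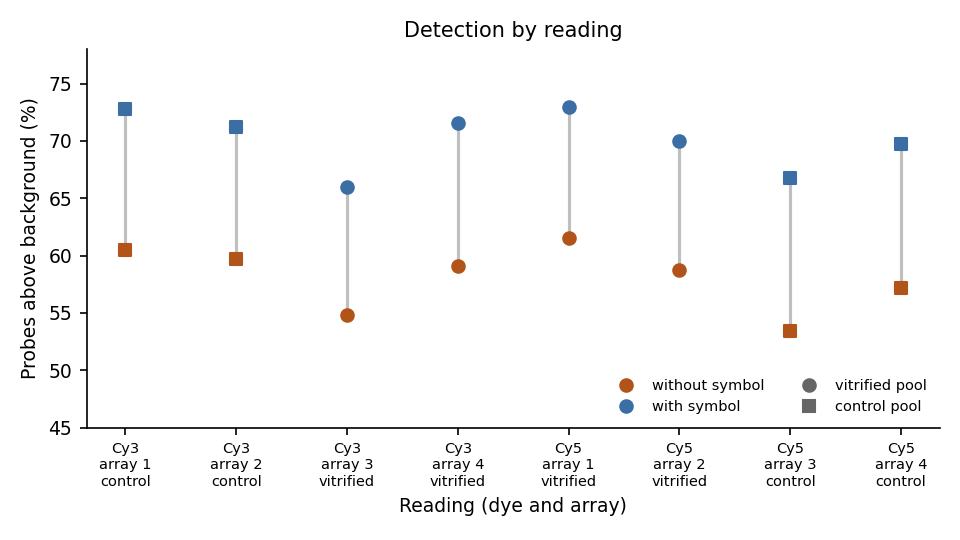
Share of probes above background (y axis, %, starting at 45) in each of 8 readings (x axis: dye, array and pool). Each line joins unnamed probes (orange, 53.4% to 61.6%) to named probes (blue, 66.0% to 73.0%) of 1 reading; circles are vitrified and squares control pools, and the classes never cross.

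The share did not separate the vitrified from the control pools. Unnamed probes above background averaged 58.5% in the vitrified and 57.7% in the control pools. The difference within an array was 1.08, -0.95, 1.38 and 1.92 percentage points on arrays 1 to 4 (exact two-sided sign-flip test, p = 0.25). Among named probes it averaged -0.03 points (p = 1, same exact test).

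Counted over readings, 8034 unnamed probes (36.5%) were above background in all 8 readings, against 11314 named probes (51.9%). In no reading above background were 4042 unnamed probes (18.4%) and 2758 named probes (12.7%). The remaining 9928 unnamed probes (45.1%) passed in some readings only. At least 4 of 8 readings were asked for before a ratio was tested. This left 13196 unnamed probes (60.0%) and 15748 named probes (72.3%), and 8808 unnamed probes were not tested.

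A small number of unnamed probes were above background in every pool of 1 treatment and in no pool of the other. There were 10 that passed in the 4 control pools only and 6 in the 4 vitrified pools only. Over all probes these patterns took 0.0388% and 0.0457%, or 17 and 20 probes. All 16 unnamed probes were dim, the readings that passed being 1.00 to 1.81 times their limit. Probes entering the test this way had to differ between treatments, so their number, direction, fold differences and p-values support nothing. With the dim side replaced by the lowest signal detected on that array, or by its own signal where higher, the control-only probes were at least 1.15-fold to 1.74-fold higher in control pools and the vitrified-only probes at least 1.15-fold to 1.27-fold higher in vitrified pools. The widest bound was that of EMBV3_10364, at least 1.74-fold higher in control pools (limma, adjusted p = 0.44). EMBV3_00609 followed with at least 1.595-fold (adjusted p = 0.51). By dye, 44 unnamed probes passed in the 4 Cy3 readings only and 17 in the 4 Cy5 readings only. Over all probes these patterns took 0.174% and 0.0708%, with 32 and 14 named probes.

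Where both classes were tested, unnamed probes were also dimmer. Their median background-subtracted signal was 195, 281, 417 and 287 units in Cy3 on arrays 1 to 4, against 322.5, 417, 509 and 438 for named probes. In Cy5 it was 134, 174, 156 and 146 units, against 226, 271, 249 and 252. On the log2 scale the median of unnamed probes was lower in 8 of 8 readings, by -0.29 in the vitrified reading of array 3 to -0.79 in the control reading of array 4. The mean difference over 4 arrays was -0.63 (SD 0.11), and -0.41 when untested probes were included. The exact sign-flip test could again go no lower than p = 0.125. A probe's brightness also depends on its own sequence and its distance from the 3′ end of the transcript, and how much either contributed was not tested.

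The class was nevertheless spread over the whole scale. Before normalization, the mean log2 background-subtracted signal of all unnamed probes had a median of 7.02. It was 6.50 at the 10th and 10.27 at the 90th percentile. For named probes these were 7.43, 6.58 and 11.48. Both classes piled up at the dim end, around or below the limits of detection, and had a long bright tail, which was thinner for unnamed probes. Of the 100 brightest probes 36 were unnamed, and of the 1000 brightest 380. Signals at the scanner's ceiling were rare, with 0 to 4 unnamed probes in a reading.

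**Figure D2:**
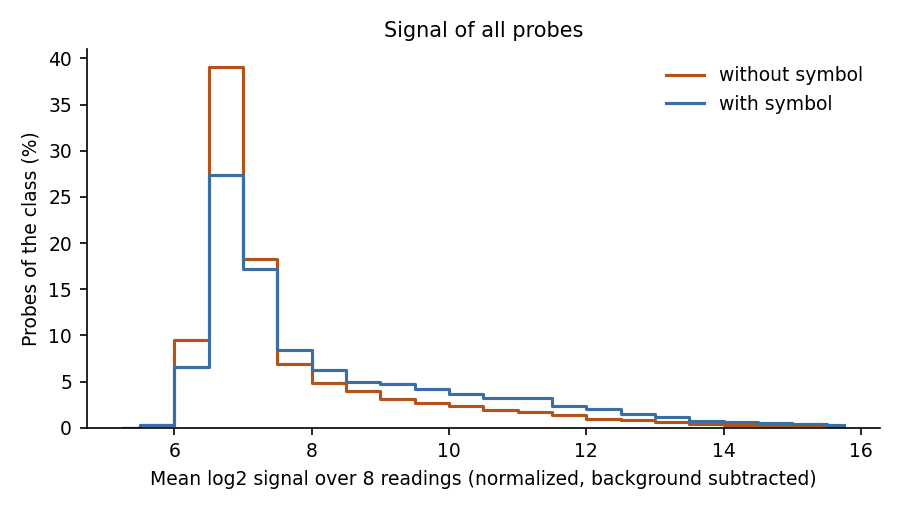
Distribution of the mean log2 background-subtracted signal over 8 readings (x axis) for all 22004 unnamed (orange) and 21790 named probes (blue). It is given as a percentage of each class (y axis) in bins of 0.5. The signal is without loess and quantile normalization, although the axis label calls it normalized. Unnamed probes (median 7.02) exceed named ones (7.43) in the dimmest bins and fall below them above 8.

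The brightest unnamed probe was EMBV3_15264. Its background-subtracted signal was 54321, 58191, 65230 and 60835 units in the control pools of arrays 1 to 4 and 64615, 59426, 56025 and 62970 in the vitrified pools. The pools overlapped before normalization, and the normalized log2 ratio of vitrified over control ran from -0.21 to 0.15. The next in order were EMBV3_43486, EMBV3_20289, EMBV3_04179 and EMBV3_34192, with mean log2 background-subtracted signals from 15.80 to 15.85. None of their ratios went beyond -0.43 or 0.24 on any array. Ratios of signals this close to the scanner's ceiling are bounded by it.

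Ratios are given as log2 of vitrified over control after loess and quantile normalization, so 1 is a doubling. Most unnamed probes had small ratios. The median over 13196 unnamed probes was 0.01, 0.01, 0.03 and 0.01 on arrays 1 to 4, and the interquartile ranges were 0.41, 0.51, 0.63 and 0.39. For named probes the medians were -0.04, 0.01, 0.02 and 0.00. The difference of these medians averaged 0.01 (SD 0.02), was positive on 3 of 4 arrays, and gave p = 0.375 by the exact two-sided sign-flip test.

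Signals of unnamed probes were ordered much alike from array to array, and their ratios were not. Between arrays, the rank correlation of the mean signal over 13196 unnamed probes was 0.90 to 0.94, and over named probes 0.95 to 0.98. Pearson's r of the ratios was 0.19 for both pairs of arrays with the same dye orientation, and -0.15 to 0.11 for the 4 pairs of opposite orientation. The corresponding values for named probes were 0.16 to 0.18 and -0.15 to 0.16. These correlations run across probes of the same slide, which share pools, dyes and scans and are no independent replicates. At the 0.05 level, a dye effect was called for 1128 unnamed probes (8.55%), close to the 8.3% of all tested probes.

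Taken over all signal levels, unnamed probes varied less between arrays than named ones, but the reverse held among bright probes. The SD of a probe's 4 ratios had a median of 0.32 for unnamed and 0.33 for named probes. Tested probes were then divided into quintiles of mean log2 signal, with borders at 7.10, 7.55, 8.60 and 10.40. Unnamed probes made up 57.0%, 49.9%, 44.5%, 40.7% and 35.8% of the quintiles from dim to bright. Their median SD was 0.26, 0.28, 0.35, 0.39 and 0.39 in that order, and that of named probes was 0.27, 0.30, 0.36, 0.39 and 0.36. In the brightest quintile the median SD of unnamed probes was the larger, in the fourth the medians were alike, and in the others it was the smaller. On arrays 1 to 4, the median absolute ratio in the brightest quintile was 0.27, 0.36, 0.38 and 0.22 for unnamed probes and 0.23, 0.32, 0.36 and 0.21 for named probes. The excess of 0.028 (SD 0.013) had the same sign on all 4 arrays, with p = 0.125 in the exact sign-flip test. With 5 such class comparisons made in all, the adjusted value was 0.156 for this one and for those of detection, signal and overall absolute ratio. Of the quintiles only the brightest was tested, and the adjustment does not cover that choice.

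**Figure D3:**
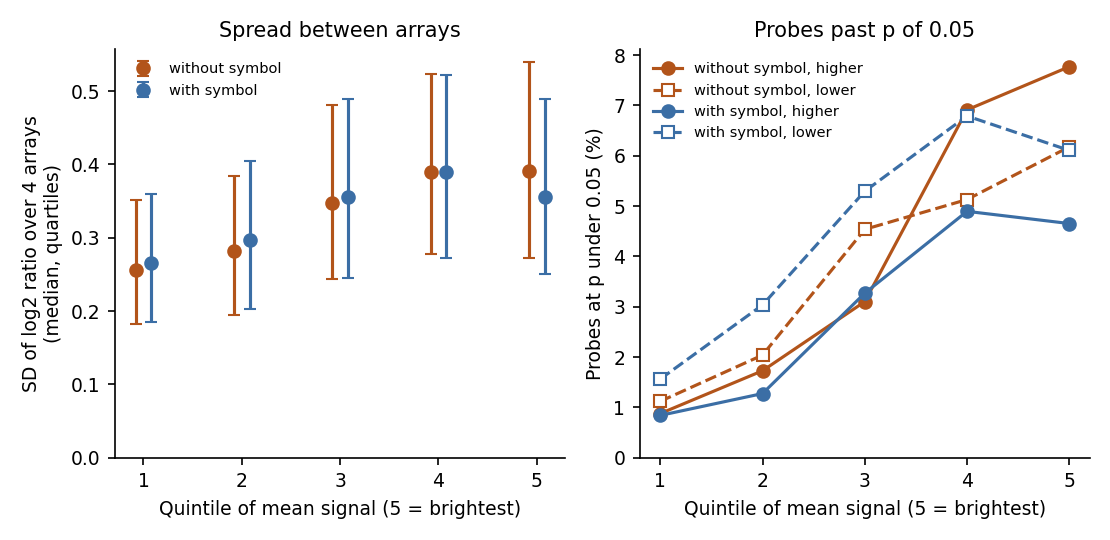
Left, the SD of the log2 ratio over 4 arrays (y axis; points are medians, bars run from the lower to the upper quartile) by quintile of mean signal (x axis, 5 brightest) for unnamed (orange) and named probes (blue). Right, the percentage of each class at an unadjusted p under 0.05 (y axis) with higher (filled, solid) or lower (open, dashed) signal in vitrified pools; higher calls among unnamed probes lead in quintiles 4 and 5, at 6.91% and 7.77%.

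Array 1 had an uneven tail among unnamed probes. There, 163 unnamed probes were at least 2-fold higher in the vitrified pool and 37 at least 2-fold lower, against 92 and 89 named probes. Of these 163 probes, 130 belonged to the 2 brightest quintiles, as did 55 of the 92 named probes. Few were repeated: 25 of the 163 were above 0 on all 4 arrays, and 0 were at least 2-fold higher on all 4. Among the 92 named probes these counts were 10 and 1. On array 2 the counts of unnamed probes were 184 higher and 204 lower, on array 3 they were 322 and 459, and on array 4 they were 45 and 28. Named probes had 228 and 338 on array 2, 435 and 676 on array 3, and 100 and 26 on array 4. An uneven tail towards higher ratios was thus also seen among named probes, on array 4. Array 3 thus had the widest and array 4 the narrowest ratios in both classes. The array 1 tail held with the background left in (138 higher, 27 lower) and without loess (164 and 37), and both counts grew to 263 and 76 in the deposited ratios. These settings were tried after the tail had been seen.

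**Figure D4:**
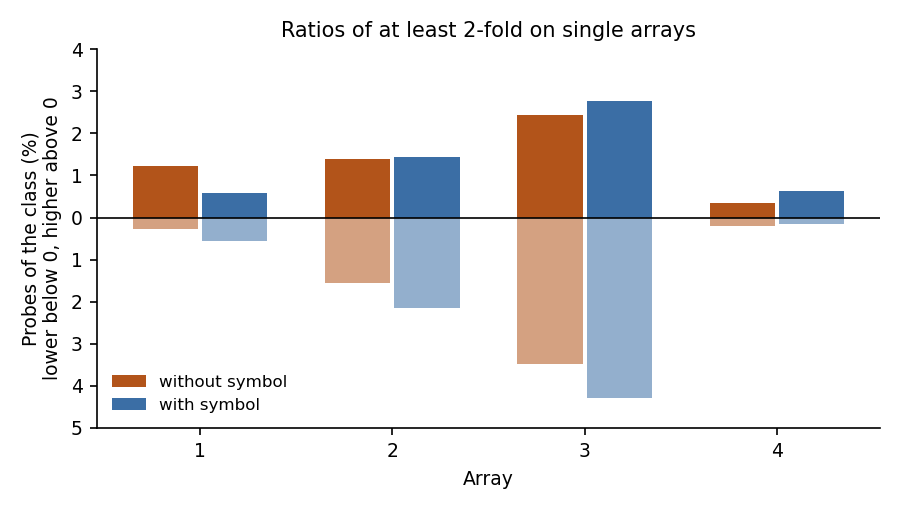
Percentage of each class (y axis) with a log2 ratio of at least 1 (bars above 0, higher in the vitrified pool) or at most -1 (pale bars below 0, lower) on each of 4 arrays (x axis), for 13196 unnamed (orange) and 15748 named probes (blue). On array 1 unnamed probes reached 1.24% higher and 0.28% lower, whereas named probes had 0.58% and 0.57%. On array 4 named probes had 0.64% higher and 0.17% lower, and unnamed probes 0.34% and 0.21%.

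The main question was which probes differed between vitrified and control pools, and it was put to all 28944 tested probes in 1 limma fit with a term for dye. No unnamed probe passed an adjusted p of 0.05, as was the case for 0% of all tested probes; the lowest adjusted p of an unnamed probe was 0.28. Without array 4, 58 unnamed probes of 169 probes in all passed it, and without arrays 2 and 3 it was 1 and 2 unnamed probes. At an unadjusted p under 0.05, 483 unnamed probes were higher in vitrified pools and 462 lower. That is 3.66% and 3.50% of those tested, against 3.41% and 4.21% of all tested probes. The share of higher calls was thus near that of all tested probes, and the share of lower calls was below it. Among named probes 504 were higher and 757 lower. Higher calls made up 51.1% of the calls among unnamed probes and 40.0% among named ones. Their share was the larger among unnamed probes in each of the 14 alternative settings, from 46.4% to 59.3% against 34.9% to 46.7%. Most of these settings refit the same 4 arrays. The shares came closest without array 1, at 49.9% for unnamed and 46.7% for named probes. The difference between the classes itself was not tested. Leaving out array 4 raised the counts for unnamed probes to 903 higher and 885 lower, and they fell to 292 and 200 without array 2 and to 279 and 239 without array 3.

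By signal, the 483 higher calls among unnamed probes came to 29, 50, 80, 163 and 161 from the dimmest to the brightest quintile, and the 462 lower calls to 37, 59, 117, 121 and 128. Unnamed probes thus had more higher than lower calls in the 2 brightest quintiles only. Named probes had fewer higher than lower calls in each quintile, with 168 higher and 233 lower in the fourth and 173 and 227 in the brightest. A ratio of 1 sign on all 4 arrays was seen for 996 unnamed probes in the higher direction (7.55%) and 834 in the lower (6.32%). Over all tested probes these shares were 7.27% and 7.13%.

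At a fold change of at least 2 together with an unadjusted p under 0.05, 8 unnamed probes were higher and 8 lower in vitrified pools. Each count was 0.0606% of the unnamed probes tested. The same rule took 0.0726% of all tested probes as higher (21) and 0.145% as lower (42), and named probes gave 13 and 34. Counting any p, 20 unnamed probes reached a 2-fold change, as did 0.252% of all tested probes (73) and 53 named probes. Of the 8 higher probes 7 had a ratio above 0 on every array, and of the 8 lower probes 6 had one below 0. The adjusted p of the 16 probes lay between 0.28 and 0.64, so none was called after adjustment. The counts changed when single arrays were left out, in fits weighted as described above. Leaving out array 1 gave 20 higher and 30 lower unnamed probes and leaving out array 4 gave 31 and 65, whereas they were 11 and 7 without array 2 and 6 and 7 without array 3. The counts over all tested probes moved in the same directions. They were 48 higher and 89 lower without array 1 and 77 and 198 without array 4. Without arrays 2 and 3 they were 27 and 37, and 19 and 21. Of the 16 probes, 11, 10, 7 and 14 stayed past the threshold without arrays 1, 2, 3 and 4.

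EMBV3_15330 had the lowest adjusted p among the higher probes. Its signal was 783, 500, 465 and 460 units in the control pools of arrays 1 to 4 and 1116, 1376, 1431 and 1507 in the vitrified pools. These signals did not overlap between the groups. They were not normalized, here and for the probes below, and the median Cy3 signal of tested probes exceeded the Cy5 median on every array. The normalized log2 ratios of EMBV3_15330 were 0.90, 1.96, 1.09 and 1.12, with a mean of 1.27 (SE 0.19), or 2.41-fold (adjusted p = 0.28).

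Of the other higher probes, EMBV3_41136 had log2 ratios of 1.19, 1.57, 1.86 and 0.48 (mean 1.27, SE 0.22). EMBV3_20986 had 0.87, 1.18, 1.98 and 0.69 (mean 1.18, SE 0.21). Both were highest on array 3 and lowest on array 4. EMBV3_27767 and EMBV3_00736 were instead led by array 1, with 1.78 and 1.80 there and 0.54 to 0.93 on the other arrays. Their mean log2 fold changes were 1.04 (SE 0.18) and 1.03 (SE 0.19). EMBV3_00736 was the brightest of the 16, with a mean normalized log2 signal of 12.26.

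EMBV3_03347 and EMBV3_26113 had by far their highest ratio on array 3. The first had ratios of 0.51, 1.05, 2.89 and 0.74, and the second 0.13, 0.89, 2.41 and 0.79. In signal, the control pool of array 3 stood low for EMBV3_03347, at 169 units against 545 to 915 in the other control pools. Its vitrified pools ranged from 602 to 1659 units and, before normalization, overlapped with them. EMBV3_29391 went against its own direction on array 3, at -1.23, with 1.63, 1.68 and 2.23 on arrays 1, 2 and 4 (mean 1.08, SE 0.44).

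Among the lower probes EMBV3_28467 was the steadiest. Its signal was 2628, 3988, 3083 and 2165 units in the control pools and 597, 1446, 1229 and 1912 in the vitrified pools. Before normalization the groups did not overlap, and array 4 brought them closest. The log2 ratios of -1.64, -1.12, -1.80 and -0.68 had a mean of -1.31 (SE 0.21), with an adjusted p of 0.28.

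The fold change farthest below 0 was that of EMBV3_17294. In the control pools its signal was 1195, 3543, 6937 and 1777 units, and in the vitrified pools 517, 592, 684 and 1675. Before normalization the groups overlapped through array 4, where the Cy3 reading of the vitrified pool nearly met the Cy5 reading of the control pool. Its log2 ratios were -0.72, -2.19, -3.86 and -0.59 (mean -1.84, SE 0.45, adjusted p = 0.43). The same order of arrays, with array 3 strongest, array 2 next and arrays 1 and 4 weak, was found in EMBV3_27070 (-0.99, -1.76, -2.96 and -0.66), EMBV3_15047 (-0.36, -1.39, -1.87 and -0.67) and EMBV3_15542 (-0.52, -1.23, -1.77 and -0.51).

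For EMBV3_35188 and EMBV3_29621 array 4 had the opposite sign. The ratios of EMBV3_35188 were -0.49, -0.98, -2.91 and 0.29. Those of EMBV3_29621 were -1.57, -1.57, -3.48 and 0.96, and 1 of its 4 vitrified readings was not above background. EMBV3_13528 was the exception among the 8, being strongest on array 4 at -1.89, with -0.44, -1.11 and -0.71 on arrays 1 to 3. Over the 8 lower probes the median ratio was -0.62, -1.31, -2.39 and -0.62 on arrays 1 to 4. Array 3 was the strongest for 7 of them and array 4 the weakest for 6.

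**Figure D5:**
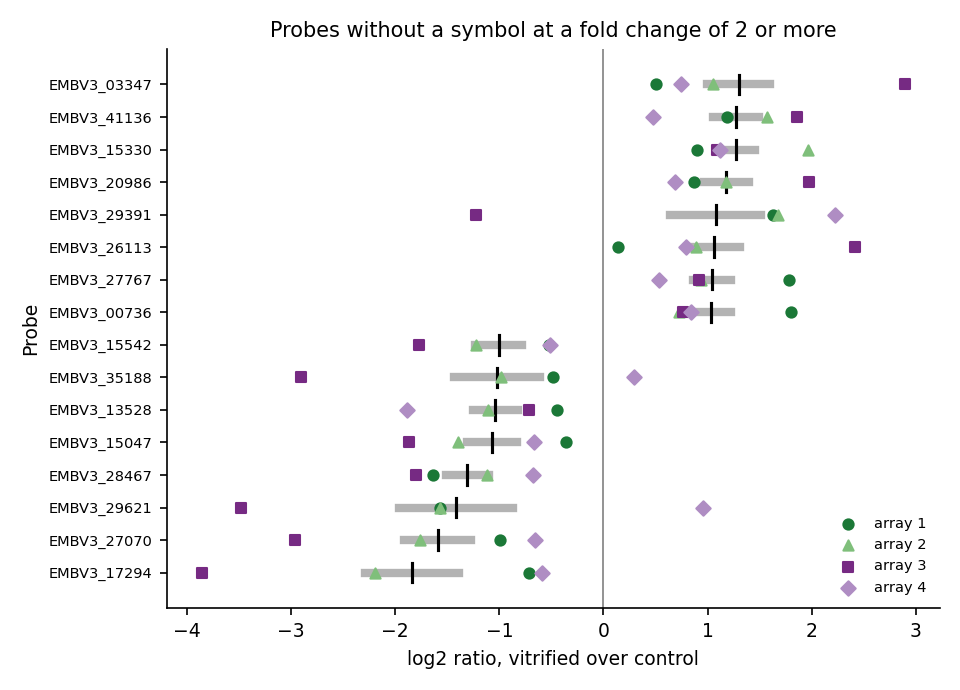
Log2 ratio of vitrified over control (x axis) on each of 4 arrays (symbols) for the 16 unnamed probes at a fold change of at least 2 and an unadjusted p under 0.05 (y axis). Black ticks are the fitted log2 fold change and grey bars 1 SE to each side; array 3 (dark squares) lies outermost for 7 of the 8 lower probes, and 3 probes have an array across 0.

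Of the unnamed probes below a 2-fold difference, those with the lowest p among probes of 1 sign on all 4 arrays included some of small spread. EMBV3_36880 had log2 ratios of -0.88, -0.98, -0.78 and -1.06, with a mean of -0.93 (SE 0.15, adjusted p = 0.28). The SD of these ratios was 0.12, below the class median of 0.32. Its mean was -0.93 in the arrays with vitrified Cy5 and -0.92 in those with vitrified Cy3. EMBV3_24385 was also lower on all arrays (-0.998, -0.78, -1.28 and -0.70), and EMBV3_03409 higher on all (0.63, 1.02, 1.45 and 0.81). EMBV3_39100, a very bright probe with 21819 to 55369 units, was higher by 1.02, 1.31, 0.78 and 0.38. EMBV3_23415 was higher by 0.48 and 0.42 on arrays 1 and 2 and by 1.14 and 1.20 on arrays 3 and 4. Its dye effect, as log2 of Cy5 over Cy3, was -0.36. The SDs of EMBV3_03409, EMBV3_39100 and EMBV3_23415 were 0.35, 0.39 and 0.42, above that median. The adjusted p of these 5 probes was 0.28 to 0.31.

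Among unnamed probes above background in all 8 readings, those with the widest spread fell into 2 kinds. For EMBV3_39564, EMBV3_38876 and EMBV3_02233 a single spot set the ratio. EMBV3_39564 had a local background of 1975 units in the control reading of array 1, above its scanned signal of 927, and its ratio there was 6.74, against -0.35 to 0.11 on the other arrays. EMBV3_38876 had a local background of 305 under a signal of 375 in the vitrified reading of array 3, with a ratio of -5.06. EMBV3_02233 had 214 under 234 in the control reading of array 2, with a ratio of 4.18. In the other readings of these 3 probes the local background was 26 to 177 units. Over all probes, it exceeded 100 units in 1.92% to 2.47% of spots in Cy3 and in 0.66% to 0.78% in Cy5.

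The other kind was bright, with local backgrounds of 29 to 477 units. EMBV3_07099 gave 11154, 6131, 1607 and 2662 units in the control pools of arrays 1 to 4 and 1139, 8279, 16812 and 10585 in the vitrified pools. Its log2 ratio was thus -2.88, 0.70, 2.97 and 1.68. EMBV3_38850 gave 42437, 22455, 12720 and 11777 units in the control and 5034, 29115, 56184 and 46597 in the vitrified pools, with ratios of -3.03, 0.39, 1.98 and 2.10. Both probes were lower in the vitrified pool of array 1 alone and higher on the other 3 arrays. Neither passed the test for vitrification, with adjusted p of 0.78 and 0.86. By dye their 4 Cy3 readings were 6131 to 16812 and 22455 to 56184 units, and their 4 Cy5 readings 1139 to 8279 and 5034 to 29115. These signals were not normalized, and the median Cy3 signal of tested probes exceeded the Cy5 median on every array. After normalization, their fitted dye effects were -1.71 and -1.68, as log2 of Cy5 over Cy3.

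At the other end, the steadiest unnamed probe was EMBV3_09255. Its log2 ratios were -0.17, -0.20, -0.19 and -0.17, an SD of 0.015 around -0.18 (adjusted p = 0.79). EMBV3_08635, EMBV3_16188, EMBV3_39252 and EMBV3_04725 followed with SDs of 0.020 to 0.030 and ratios between -0.13 and 0.05. Of these 5 probes, only EMBV3_09255 exceeded a mean log2 signal of 9.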

How the data were processed

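The deposited scanner files gave median foreground and median local background intensity per spot for Cy3 and Cy5, with no normalization by the authors. Deposited log2 ratios per array, made by the authors and close to loess ratios before the quantile step, served as an alternative. Local background was subtracted (floor 0.5), control spots were given weight 0 in loess, arrays were quantile normalized, and ratios were turned to vitrified over control. Probes above the mean plus 2 SD of 153 negative control spots in at least 4 of 8 readings were fitted in limma 3.58.1 (R 4.3.3) with a dye term (residual df 2, prior df 6.76). P-values were adjusted by Benjamini-Hochberg over all 28944 probes. Probe names were matched to the platform annotation, and 21790 of 43794 had 1 symbol. The script was tested on simulated signals. The number of arrays limits the precision. The limma p-values rest in part on the spread between pairs of pools, which the methods assign to separate culture cycles. With these df, each probe's spread was drawn strongly towards a value common to all tested probes. EMBV3_09255, whose ratios had an SD of 0.015, thus had an SE of 0.14. The members and lists were chosen with earlier results of these data known. Apart from those detected in 1 treatment only, the unnamed probes cited by identifier were chosen by rule. They were all those past the threshold, the 5 brightest, and the 5 with largest and 5 with smallest SD. The last were the 5 with lowest p among the rest whose ratios shared a sign. Alternatives covered background, filter, normalization, dye term, test and each array left out.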

Additional observations from a re-analysis of the deposited data

Results flagged for a closer look

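Of 42 sets of 4 array values checked, 6 had 1 array far from the other 3. Chance flags about 1 in 20 of sets not chosen for their spread, but 4 of the 6 were probes chosen for a large or small SD, to which that rate does not apply. The median ratio of unnamed probes was 0.030 on array 3, apart from the other arrays by a small amount. EMBV3_00736 stood out on array 1 with a log2 ratio of 1.80. EMBV3_39564 did so on array 1 (6.74), EMBV3_38876 on array 3 (-5.06) and EMBV3_02233 on array 2 (4.18), each with a high local background at that spot. EMBV3_16188, a probe of very small spread, was flagged for 0.012 on array 4.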

How the results depend on the processing

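With the limit at the mean plus 3 SD, 47.1% of unnamed probes were above background, and leaving out each array gave 57.1% to 59.4%. The signal difference from named probes was -0.41 with no filter and -0.45 for probes above background in all 8 readings, and -0.69 to -0.60 with each array left out. Under each alternative, the median SD (0.28 to 0.35) moved by less than the SD over arrays of the median absolute ratio. The median ratio (0.007 to 0.025) moved by less than its own SD over arrays.

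At a fold change of 2 and p under 0.05, the unmoderated test of the 4 ratios gave 5 higher and 3 lower unnamed probes, and 5 were lower without background subtraction and with an intensity trend and robust fit. Leaving out each array gave 6 to 31 higher and 7 to 65 lower, against 19 to 77 and 21 to 198 over all tested probes. At p under 0.05 alone, leaving out each array gave 279 to 903 higher and 200 to 885 lower, 304 were lower when all 8 readings were asked for, and 292 were lower in the unmoderated test. The remaining alternatives kept these counts within 1.5 times. At an adjusted p under 0.05, leaving out each array gave 0 to 58 unnamed probes. The 58, of 169 probes in all, arose without array 4, where 16 were higher and 42 lower and 39 had the same sign on array 4. There their median absolute ratio was 0.38, against a median absolute fold change of 1.26 (log2) fitted from the other 3 arrays. In that fit array 3 weighed as much as arrays 1 and 2 together and added nothing to the spread behind the p-values. Without arrays 2 and 3 it was 1 and 2 unnamed probes, and 0 under each remaining alternative. The cause was not tested.

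The 21 unnamed probes cited for their fold change or p kept their direction in each of 293 fits. Those cited for a fold change of at least 2 were held to that fold change with p under 0.05, the rest to p under 0.05 alone. By these rules 41 fits fell short. Restricting the class to probes listed with an empty symbol gave no value, since the annotation lists none. Each array is 1 pair of pools, so pairing is part of every ratio. With 4 arrays, the exact sign-flip tests between the classes cannot reach p under 0.05.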
